A study of Mus musculus with 42 samples.

Results

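De novo lipogenesis, the making of fatty acids from acetyl-CoA, was followed through 10 genes of the 54532 in the deposited count table. They are Srebf1, Mlxipl, Thrsp, Acly, Me1, Acaca, Acacb, Fasn, Elovl6 and Pnpla3, taken by gene name, and each name belonged to 1 row of the table. The 42 libraries were made from poly(A) RNA of female C57BL/6 mice (the substrain C57BL/6NHsd by the study's methods), 3 per diet and time point at 7 time points, and every sample was labelled as liver. The mice were 3 weeks old at the start and were fed for 3 weeks, on AIN93G or on a diet high in fat (HFD). AIN93G, labelled as the standard diet (LF), gives 16% of its energy as fat, and the HFD is a modified AIN93G that gives 45%, with soybean oil as the fat of both. By the study's methods the HFD also gives a smaller share of its energy as carbohydrate. More fat and less carbohydrate thus cannot be told apart here. Mice of both diets had free access to food, were housed in groups, and were not fasted before they were killed, which was done every 4 h from Zeitgeber time (ZT) 0 to ZT 24. The lights came on at ZT 0 and went off at ZT 12. At the end they were put down with injected ketamine and xylazine, and neither the labels nor the methods name another agent. Each library is 1 mouse, so the p-values below measure the spread between mice. In the main liver fit all groups share the estimate of this spread. It thus includes the ZT 12 groups, whose livers differ in the clock gene Arntl (below).

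The pathway starts from citrate that leaves the mitochondria. ATP citrate lyase (Acly) splits it into acetyl-CoA, acetyl-CoA carboxylase (Acaca in the cytosol, Acacb at the mitochondrial surface) makes malonyl-CoA, fatty acid synthase (Fasn) builds palmitate with NADPH from malic enzyme (Me1) and the pentose phosphate pathway, and the elongase Elovl6 lengthens palmitate to stearate. In liver these genes are known to be driven by insulin through SREBP-1c, a product of Srebf1, and by glucose through ChREBP, the product of Mlxipl, and to be held down by fasting and by polyunsaturated fat. Thrsp (Spot 14) responds to thyroid hormone and carbohydrate and supports the pathway, and Pnpla3 encodes a lipid droplet protein that is a target of both transcription factors.

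The members lie on 6 chromosomes in the coordinates of the count table (mm10). Srebf1 (60199089-60222581), Acaca (84129672-84401651), Acly (100476353-100528000) and Fasn (120805846-120824547) are on chromosome 11, and Mlxipl (135089890-135138382) and Acacb (114146535-114250761) are on chromosome 5. Elovl6 is on chromosome 3 (129532355-129638495), Thrsp on chromosome 7 (97412938-97417730), Me1 on chromosome 9 (86581371-86695953) and Pnpla3 on chromosome 15 (84167837-84187236). All 10 are annotated as protein coding, and the counts cover their exons. Rai1, which overlaps Srebf1 on the other strand, had at most 56.8 CPM, and Mir6392, within Pnpla3 on its strand, had at most 23.4 CPM in any library.

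Start regions of all 10 members were read from RefSeq (GRCm38.p6), as 14 windows of 300 bases from 250 bases before to 50 bases after an annotated start. The windows shown are those of the 3 members that moved most closely with the others (Elovl6, Fasn and Pnpla3) and both starts of Mlxipl, which held the SRE and E-box matches. They are written 5′ to 3′ along the gene, and capitals mark matches on either strand to the SRE letters TCACNCCAC bound by SREBP, the E-box CACGTG, the CCAAT box CCAAT and the GC box GGGCGG.
Fasn (chr11:120824498-120824797, minus strand): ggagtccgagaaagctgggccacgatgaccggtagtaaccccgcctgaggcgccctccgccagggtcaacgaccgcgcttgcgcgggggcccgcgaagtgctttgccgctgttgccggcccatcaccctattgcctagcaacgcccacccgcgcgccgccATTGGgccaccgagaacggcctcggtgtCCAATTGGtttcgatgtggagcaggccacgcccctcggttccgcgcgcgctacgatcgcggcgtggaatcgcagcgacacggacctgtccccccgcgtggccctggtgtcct
Elovl6 (chr3:129532136-129532435, plus strand): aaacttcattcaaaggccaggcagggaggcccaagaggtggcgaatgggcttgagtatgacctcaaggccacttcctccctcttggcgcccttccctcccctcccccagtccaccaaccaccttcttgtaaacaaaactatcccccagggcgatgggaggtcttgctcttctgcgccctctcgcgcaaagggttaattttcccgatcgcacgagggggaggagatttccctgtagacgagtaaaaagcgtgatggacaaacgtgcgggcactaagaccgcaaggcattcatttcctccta
Pnpla3 (chr15:84167566-84167865, plus strand): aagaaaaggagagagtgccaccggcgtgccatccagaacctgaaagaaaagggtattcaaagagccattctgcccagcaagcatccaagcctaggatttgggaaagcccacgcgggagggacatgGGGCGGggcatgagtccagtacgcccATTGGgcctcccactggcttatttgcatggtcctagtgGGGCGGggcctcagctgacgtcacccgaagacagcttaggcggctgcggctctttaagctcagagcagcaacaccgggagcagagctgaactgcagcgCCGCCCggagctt
Mlxipl, upstream start (chr5:135089640-135089939, plus strand): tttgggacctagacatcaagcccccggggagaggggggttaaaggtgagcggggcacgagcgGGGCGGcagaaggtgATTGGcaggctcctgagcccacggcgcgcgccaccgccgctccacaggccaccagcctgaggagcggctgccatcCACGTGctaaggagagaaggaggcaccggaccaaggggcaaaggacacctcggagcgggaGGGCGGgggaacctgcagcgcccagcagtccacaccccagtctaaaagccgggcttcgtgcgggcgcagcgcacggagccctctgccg
Mlxipl, downstream start (chr5:135106641-135106940, plus strand): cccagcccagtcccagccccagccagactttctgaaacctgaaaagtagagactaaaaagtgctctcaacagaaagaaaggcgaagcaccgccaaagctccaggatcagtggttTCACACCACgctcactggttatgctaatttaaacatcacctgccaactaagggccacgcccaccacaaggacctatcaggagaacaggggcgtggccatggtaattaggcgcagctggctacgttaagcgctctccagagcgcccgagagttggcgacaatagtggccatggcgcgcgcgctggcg

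The CCAAT box, which is read by NF-Y, a partner of SREBP, was found in a window of 8 of the 10 members, or 9 of their 14 windows (64.3%), and in 37.4% of all 32851 windows of the table. Fasn held 3 of them, at 90, 62 and 59 bases before the start, and the last 2 overlap and run in opposite directions. The GC box was found in 5 of the 10 members, or 6 of the 14 windows (42.9%, against 35.7% of all windows). The window of Acly and 1 of Me1 held 4 matches each, and that of Pnpla3 and 1 of Srebf1 held 3 each. The E-box was found in 1 member and 1 window (7.14% of the 14, against 7.15% of all windows), 98 bases before the upstream start of Mlxipl. The SRE letters were also found in 1 member (1.24% of all windows), as TCACACCAC 136 bases before the downstream start of Mlxipl. The window of Elovl6 held none of the 4 motifs. These are matches of letters, and the libraries do not measure binding.

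The libraries were of 2 kinds. Alb, the main hepatocyte transcript, was at least 66434 CPM (the count scaled by the total count of the library) in 32 libraries, which are called liver here, and at most 81.0 CPM in the other 10, where the adipocyte transcript Adipoq reached 1455 to 2984 CPM against at most 5.01 CPM in liver. These are the 6 AIN93G libraries of ZT 16 and ZT 20 and, at ZT 24, 2 libraries of each diet, and the summed CPM of 10 adipocyte markers was 30440 to 48222 in them against 708 to 2648 in liver. They are called adipocyte-rich and are described apart. Total counts were 14592481 to 21368409 per library. Liver of both diets was thus complete (3 libraries each) at ZT 0, 4, 8 and 12, and on the HFD also at ZT 16 and ZT 20. The clock gene Arntl, which falls during the light phase, set 5 liver libraries apart from their labels. At ZT 12, AIN93G replicates 2 and 3 and HFD replicate 3 had 38.4 to 46.9 CPM of Arntl, as at ZT 0 (39.9 to 49.1), and the other 3 had 0.898 to 1.67 CPM. At ZT 24, the same hour of the day as ZT 0, Arntl was low in all 6 libraries, with 0.745 and 1.11 CPM in the 2 livers, which entered only alternative fits, and 0.614 to 4.59 CPM in the 4 adipocyte-rich libraries, against 29.2 to 43.2 CPM in the adipocyte-rich ones of ZT 20. Of the 3 ZT 12 libraries with high Arntl, 2 carry a light phase label and 1 a dark phase label, and the other 3 are all labelled dark. The tests over several times of liver were also fitted without ZT 12. In these bulk libraries, fewer cells of a type and less RNA per cell cannot be told apart.

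The first question was how the HFD moved these transcripts in liver. All 10 had lower fitted levels on the HFD, but only Acaca passed the test across all genes, and its call was lost without the 3 ZT 12 libraries with high Arntl. Over ZT 0, 4, 8 and 12 together, all 10 members had a fitted log2 fold change (HFD minus AIN93G) below 0, with a median of -0.82, where the median of the 12023 genes tested was -0.00. Acaca fell by 1.02 on the log2 scale and was the only member called by the quasi-likelihood test of edgeR at an adjusted p under 0.05, where 0.0582% of all genes tested were called lower. DESeq2 called 4 members (0.69% of all genes in either direction), and edgeR called 7 when every gene with a count was tested (0.768%). At an unadjusted p under 0.05, 8 members were lower, all but Srebf1 and Thrsp, against 3.95% of genes. The diet difference of the members at each time point is shown in the plot of log2 fold changes.

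Among the regulators, Srebf1, which encodes SREBP-1, had a small difference between the diets. It reached 365, 242 and 409.7 CPM in the 3 AIN93G livers of ZT 0 and 371, 201 and 246 CPM in the HFD livers. The groups overlapped, and the 12 livers of ZT 0 to 12 ranged from 242 to 954 CPM on AIN93G (median 378) and from 201 to 679 CPM on the HFD (median 390.5). Its log2 fold change over these times was -0.20 ± 0.17 (SE, edgeR, adjusted p = 0.796). Mlxipl, ChREBP, had 443, 369 and 371 CPM on AIN93G and 324, 372 and 239 CPM on the HFD at ZT 0. Its mean difference was -0.28 ± 0.08, with a value below 0 at each of the 4 time points (edgeR, adjusted p = 0.233).

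Thrsp was without overlap between the diets at ZT 0. Its 3 AIN93G livers had 568, 305 and 418 CPM at ZT 0, and its HFD livers had 221, 50.6 and 58.3 CPM, so that the groups did not overlap. The log2 fold change was -2.02 ± 0.60 at that time, and at ZT 4, 8 and 12 it was -0.16 ± 0.58, -0.72 ± 0.58 and 0.70 ± 0.58 in turn. Over 40 alternative fits the value at ZT 0 ran from -2.99 to -0.60. In the test of diet by time, Thrsp was the 1 member with an unadjusted p under 0.05 (6.06% of genes had one), and its adjusted p was 0.812 by edgeR. No member passed this test at an adjusted p under 0.05 (0% of genes), and DESeq2 called none of the 10 and 5 of all genes. With every gene that had a count tested, edgeR called Thrsp (adjusted p = 0.000439) and Elovl6 (0.0141), with 0.308% of genes. The fitted range of the diet differences of Thrsp was 2.73 there and 2.72 in the main fit. The p-values moved and the differences did not, so calls under this filter are not added evidence.

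For the supply of acetyl-CoA and NADPH, Acly had 1226, 481 and 513 CPM on AIN93G at ZT 0 and 519, 176 and 264 CPM on the HFD. One HFD liver lay among the AIN93G livers. Me1 had 609.8, 413 and 349.9 CPM on AIN93G and 138, 98.8 and 113 CPM on the HFD, with every HFD liver far below every AIN93G liver. Over ZT 0 to 12 the log2 fold change was -0.69 ± 0.31 for Acly (edgeR, adjusted p = 0.554) and -0.96 ± 0.23 for Me1 (edgeR, adjusted p = 0.0929).

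The enzymes that build and lengthen the chain were also apart between the diets at ZT 0. Acaca had 444, 366 and 286 CPM on AIN93G against 146, 73.5 and 94.9 CPM on the HFD, and at ZT 4 it had 152, 148 and 204 CPM against 114, 77.1 and 87.6 CPM. Fasn had 2134, 1151 and 1307 CPM on AIN93G at ZT 0 against 809, 271 and 307 CPM on the HFD. In both genes every HFD liver of ZT 0 was below every AIN93G liver. Elovl6 had 687, 329 and 386 CPM on AIN93G at ZT 0 and 115, 54.0 and 45.98 CPM on the HFD, and its log2 fold change was -2.75 ± 0.66 at this time. Acacb, whose malonyl-CoA restrains the entry of fatty acids into mitochondria, had 366, 212 and 219.7 CPM against 154, 87.6 and 84.6 CPM. Over ZT 0 to 12 the values were -1.02 ± 0.20 for Acaca (edgeR, adjusted p = 0.0323), -1.02 ± 0.32 for Fasn (0.254), -1.38 ± 0.32 for Elovl6 (0.0888) and -0.64 ± 0.21 for Acacb (0.298).

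Pnpla3 had the lowest median level per kb and the largest fitted difference of the members. Its AIN93G livers had 84.4, 30.6 and 45.8 CPM at ZT 0, and its HFD livers had 9.32, 0.541 and 4.20 CPM. At ZT 4 it had 17.5, 28.3 and 15.1 CPM on AIN93G and 2.53, 7.39 and 2.32 CPM on the HFD, and at ZT 8 it had 8.55, 12.9 and 29.9 CPM against 3.03, 2.66 and 3.94 CPM. The HFD livers were below the AIN93G livers without overlap at all 3 times. The log2 fold change over ZT 0 to 12 was -2.47 ± 0.52 (edgeR, adjusted p = 0.0526). Over the alternative fits it ran from -2.78 to -1.12. The weakest values of Elovl6, Fasn and Acly in such fits were -0.77, -0.34 and -0.12.

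**Figure D1:**
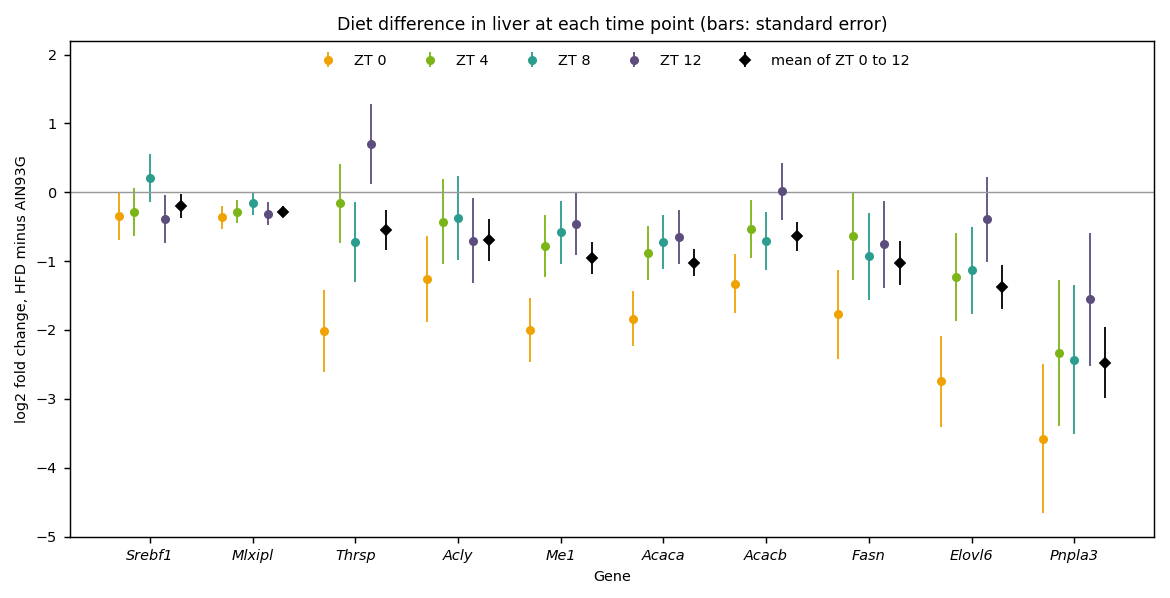
Fitted log2 fold change (HFD minus AIN93G, vertical axis) of each lipogenic gene in liver at ZT 0, 4, 8 and 12 and for the mean of the 4 times. Standard errors were derived from the F statistic of edgeR. The points of ZT 0 are the lowest of the 4 times in 9 genes, all but Srebf1, with -3.58 for Pnpla3 and -2.75 for Elovl6, and the mean of the 4 times is below 0 in all 10.

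At the later times of the light phase the fitted differences were smaller in most members, but edgeR passed no member in the test of diet by time unless every gene with a count was tested. At ZT 4 Elovl6 had 133, 155 and 159.9 CPM on AIN93G against 57.6, 69.2 and 67.0 CPM on the HFD, and Me1 had 220.0, 145 and 162 CPM against 99.0, 107 and 109 CPM. Both were still without overlap, as was Acly with 307, 325 and 340.0 CPM against 268, 303 and 162 CPM, by a narrow gap. At ZT 8 Elovl6 had 177, 225 and 276 CPM against 78.4, 46.6 and 186 CPM, and 1 HFD liver lay within the AIN93G range. At ZT 12 the AIN93G livers spread widely, with 87.1, 428 and 737 CPM of Elovl6 and 1.37, 89.4 and 108 CPM of Pnpla3, and the HFD livers had 229, 529 and 147 CPM of Elovl6 and 5.58, 36.5 and 22.4 CPM of Pnpla3. The low AIN93G liver of both genes was replicate 1, the only one of its group with low Arntl. Thrsp had its highest liver of the 2 diets at this time, 2286 CPM on the HFD.

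By time point, 7 members did not overlap between the diets at ZT 0 and were lower on the HFD (Fasn, Thrsp, Acaca, Me1, Elovl6, Acacb and Pnpla3), where 4.99% of genes did so. Of such members there were 6 at ZT 4 (2.84% of genes), 1, Pnpla3, at ZT 8 (4.91%) and none at ZT 12 (4.5%). At an unadjusted p under 0.05, 8 members were lower at ZT 0 (1.64% of genes), and 2 (Acaca and Pnpla3), 1 (Pnpla3) and none were at ZT 4, 8 and 12 (1.25%, 6.13% and 4.4% of genes). At an adjusted p under 0.05 edgeR called no member at any single time point, and it called 0% of genes at ZT 0, ZT 4 and ZT 12 and 0.0166% at ZT 8. With every gene that had a count tested, edgeR called 7 members at ZT 0 (0.169% of genes), 1 at ZT 4 (0.0629%) and likewise 1 at ZT 8 (0.606%), while a fit of the 6 libraries of ZT 0 alone called 1 (9 of all genes). DESeq2 called 3 members at ZT 0 (13 of all genes) and none at ZT 4, 8 and 12 (0, 30 and 3 of all genes). In the main fit the smallest adjusted p of a member at a single time point was that of Acaca at ZT 0 (0.327 by edgeR). Fitted without ZT 12, Acaca at ZT 0 had an adjusted p of 0.0875 by edgeR. Its standard error was then 0.34 in place of 0.40.

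Fitted without ZT 12, over ZT 0, 4 and 8, a total of 4 members fell on the HFD (0.207% of genes were called lower). These were Acaca (-1.14 ± 0.19, edgeR, adjusted p = 0.00606), Elovl6 (-1.70 ± 0.31, adjusted p = 0.0110), Pnpla3 (-2.78 ± 0.51, adjusted p = 0.0110) and Me1 (-1.12 ± 0.22, adjusted p = 0.0203). Without only the 3 ZT 12 libraries that had ZT 0 levels of Arntl, no member was called (0 of all genes, adjusted p = 0.581 for Acaca by edgeR) and Acaca was at -0.65. ZT 12 then held 1 AIN93G and 2 HFD livers, and 9 members, all but Mlxipl, had a log2 fold change above 0 at that time, with 1.99 for Fasn in place of -0.76. The AIN93G libraries among those left out held high lipogenic levels, with 2794 and 2178 CPM of Fasn in AIN93G replicates 2 and 3 against 265 CPM in replicate 1. In the HFD livers of ZT 12 Fasn was 624, 1604 and 712 CPM, and the last of these is the library with high Arntl. In a fit of all 42 libraries Acaca was not called (edgeR, adjusted p = 0.126) and Pnpla3 was (0.0312), with 0.0821% of genes. The call of Acaca over ZT 0 to 12 was also lost without any 1 of 15 libraries, with adjusted p up to 0.0851. They were AIN93G ZT 0 replicate 1, ZT 4 replicates 1 and 3, ZT 8 replicates 1 and 3 and ZT 12 replicates 2 and 3, and HFD ZT 0 replicates 2 and 3, ZT 4 replicates 2 and 3, ZT 8 replicates 1 and 2 and ZT 12 replicates 1 and 3. Without AIN93G ZT 12 replicate 1, 6 members were called (Me1, Acaca, Acacb, Fasn, Elovl6 and Pnpla3), where the genes called rose from 12 to 183 (1.52%), and without HFD ZT 16 replicate 1, 3 were (Acaca, Elovl6 and Pnpla3, 0.216% of genes). Without HFD ZT 8 replicate 3 or HFD ZT 16 replicate 3, 2 were called, Acaca with Elovl6 or with Pnpla3 (0.166% and 0.175% of genes).

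The liver library of ZT 24 of each diet entered only alternative fits. The AIN93G library had 1978 CPM of Thrsp, 726 CPM of Fasn and 12.6 CPM of Pnpla3, and the HFD library had 1824, 593 and 2.67 CPM. Both had more Thrsp than any ZT 0 liver, where it was at most 568 CPM.

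**Figure D2:**
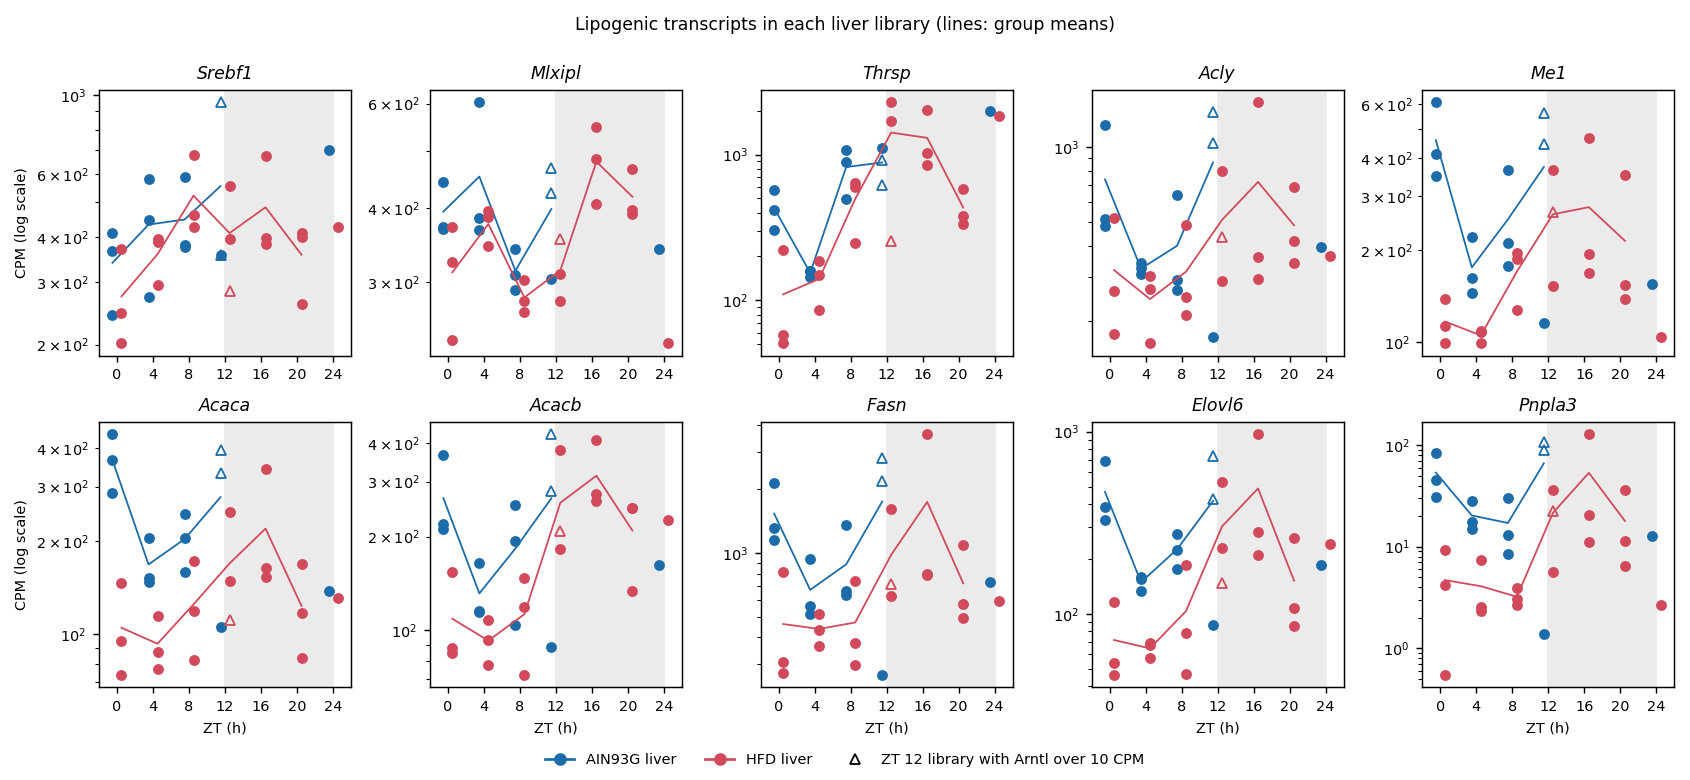
CPM of each lipogenic gene (log scale) against ZT in hours for the 32 liver libraries of AIN93G (blue) and HFD (red), with lines through the means of complete groups and open triangles for the 3 ZT 12 libraries with over 10 CPM of Arntl. At ZT 0 the HFD points of Me1 (98.8 to 138 CPM) lie below all AIN93G points (349.9 to 609.8 CPM), while those of Srebf1 overlap.

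The second question was how the same transcripts moved over the day. On AIN93G only the light phase could be followed in liver. The means of Fasn from ZT 0 to ZT 12 were 1530.4 ± 528, 669.9 ± 231, 884 ± 407 and 1746 ± 1319 CPM (SD, n = 3), and Elovl6, Acaca and Me1 likewise had their lowest mean at ZT 4. Thrsp had means of 430.0 ± 132, 154 ± 9.30, 821 ± 298 and 883 ± 247 CPM. By the F-test of edgeR over the 4 times no member passed an adjusted p of 0.05, where 0.823% of genes did, and 2 members, Thrsp and Me1, had an unadjusted p under 0.05 (10.7% of genes). With every gene that had a count tested, edgeR called 8 members (2.89% of genes). DESeq2 called 1 member (276 of all genes), and edgeR called 1 member without ZT 12 (3.62% of genes) and also without HFD ZT 12 replicate 3 (1.49%), when Thrsp had an adjusted p of 0.0228.

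On the HFD, with liver at 6 times, most of the enzyme transcripts had low means from ZT 0 to ZT 8 and their highest mean at ZT 16. The latter rested on HFD ZT 16 replicate 1, and without it Acly, Me1, Acaca, Fasn, Elovl6 and Pnpla3 had their highest mean at ZT 12, with 791 CPM of Fasn at ZT 16 against 980.0 at ZT 12. The F-test over the 6 times called 5 members (Thrsp, Elovl6, Acacb, Mlxipl and Pnpla3), against 5.27% of genes. Pnpla3 had means of 4.69 ± 4.41, 4.08 ± 2.87 and 3.21 ± 0.655 CPM (SD, n = 3) at ZT 0, 4 and 8, and of 21.5 ± 15.5, 53.4 ± 65.5 and 17.9 ± 15.9 CPM at ZT 12, 16 and 20. Thrsp rose from 110.0 ± 96.3 CPM at ZT 0 to 1415 ± 1046 CPM at ZT 12 and was at 433 ± 133 CPM at ZT 20. It had the largest fitted range of the called members after Pnpla3, 3.83 on the log2 scale against 4.04 (edgeR, adjusted p = 0.0013 and 0.0403). DESeq2 called 8 members (14.9% of genes), edgeR called all 10 when every gene with a count was tested (5.75%), and without ZT 12 the F-test called 6 (8.68%). The call of Mlxipl was lost without HFD ZT 8 replicate 3 or HFD ZT 16 replicate 2 or 3. That of Pnpla3 was lost without any 1 of 10 libraries, which were AIN93G ZT 0 replicate 3 and ZT 4 replicate 3, and HFD ZT 0 replicates 2 and 3, ZT 4 replicates 1 and 3, all 3 of ZT 8 and ZT 16 replicate 1. Limma did not call Pnpla3 either. A fit of all 42 libraries called 3 members (3.21% of genes), and Mlxipl (adjusted p = 0.15) and Acacb (0.0517) were lost.

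The night libraries of the HFD (ZT 16 and ZT 20) were then set against the day libraries (ZT 4 and ZT 8), with 6 livers on each side. Food intake was not recorded in the study. Of the members, 5 rose at night (3.11% of genes), 9 had a higher value at an unadjusted p under 0.05 (10.7% of genes), and Srebf1 was at -0.04 ± 0.25. The median log2 difference of the members was 1.21, against 0.00 over all genes. Pnpla3 ranged from 2.32 to 7.39 CPM by day (median 2.85) and from 6.46 to 129 CPM at night (median 15.8), a log2 difference of 3.11 ± 0.76 (edgeR, adjusted p = 0.0140). Elovl6 ranged from 46.6 to 186 CPM by day (median 68.1) and from 86.2 to 971 CPM at night (median 236), 1.75 ± 0.45 (edgeR, adjusted p = 0.0192). For both genes the lowest night liver lay among the day livers.

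Thrsp ranged from 86.1 to 641 CPM by day (median 216) and from 335 to 2035 CPM at night (median 717), 1.52 ± 0.42 (edgeR, adjusted p = 0.0266). Acacb ranged from 71.7 to 148 CPM by day (median 100.2) and from 134 to 407 CPM at night (median 254), 1.35 ± 0.30 (edgeR, adjusted p = 0.00793). Mlxipl ranged from 267 to 396 CPM by day (median 324) and from 392 to 548 CPM at night (median 436), 0.48 ± 0.12 (edgeR, adjusted p = 0.0162). Of these, Mlxipl had the smallest difference, and its groups overlapped by 1 night liver. None of the 10 members was higher at night without overlap, where 1.1% of genes were. Fasn (1.31 ± 0.45, adjusted p = 0.0784), Acly (1.11 ± 0.44, 0.129), Me1 (0.88 ± 0.32, 0.0945) and Acaca (0.62 ± 0.28, 0.178) did not pass the adjusted threshold of edgeR. With every gene that had a count tested, all 4 passed and 9 members were called (3.26% of genes in either direction). With limma 4 were, and the call of Pnpla3 was lost (6.86%). In a fit of all 42 libraries 4 were, and the call of Mlxipl was lost (edgeR, adjusted p = 0.0966, 4.21% of genes).

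**Figure D3:**
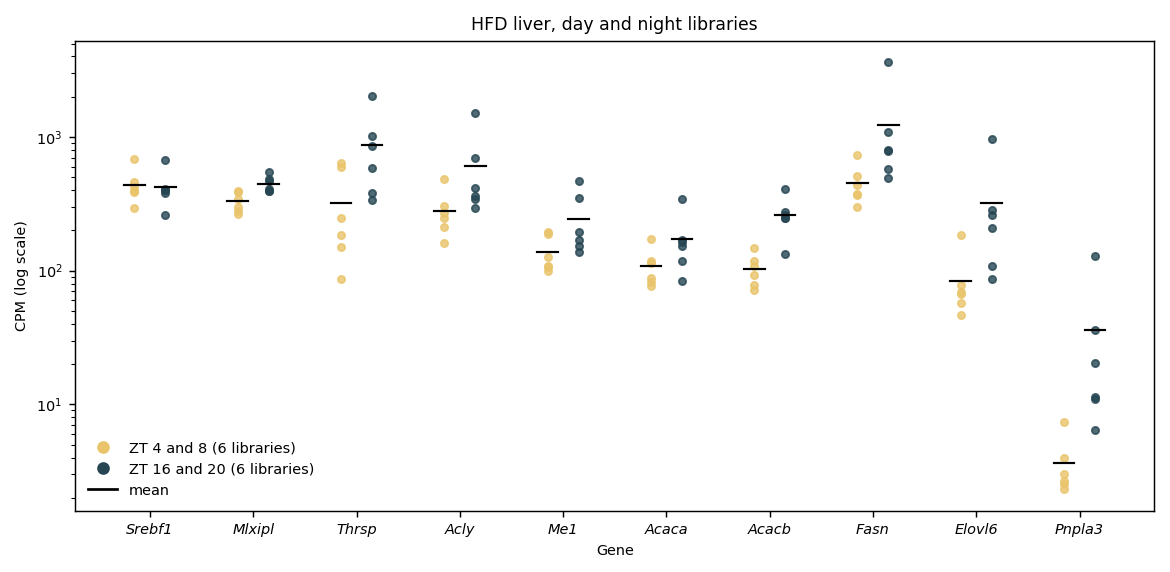
CPM (log scale) of each lipogenic gene in the 6 HFD livers of ZT 4 and ZT 8 and the 6 of ZT 16 and ZT 20, with bars at the means. The night points of Pnpla3 reach from 6.46 to 129 CPM against 2.32 to 7.39 CPM by day, and the highest night point of Fasn, at 3632 CPM, is 1 library of ZT 16.

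The night level leaned on HFD ZT 16 replicate 1, the highest HFD liver in 7 members (Acly, Me1, Acaca, Acacb, Fasn, Elovl6 and Pnpla3), with 3632 CPM of Fasn against 795 and 788 CPM in replicates 2 and 3. Without it only Mlxipl (edgeR, adjusted p = 0.0100) and Acacb were called (6.45% of genes in either direction), and the log2 difference of Fasn was 0.76 in place of 1.31. Without HFD ZT 20 replicate 1 the same 2 were called (5.15% of genes), and without HFD ZT 8 replicate 2 Mlxipl, Acacb and Pnpla3 were (5.52%). The call of Thrsp was further lost without HFD ZT 4 replicate 1 or 3, and without AIN93G ZT 12 replicate 1 Fasn and Me1 were called as well (8.26%). Fitted without the ZT 12 libraries, 7 members were called, with Fasn (edgeR, adjusted p = 0.0325) and Me1 (0.0436) added, where 9.77% of genes were called in either direction. All night livers carry the dark label and all day livers the light label, and time and phase cannot be told apart.

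A 24 h cosine fitted to the 18 HFD livers of ZT 0 to ZT 20 was called for 7 members (Fasn, Thrsp, Acaca, Me1, Elovl6, Acacb and Pnpla3), against 8.52% of genes. Their fitted peaks lay between ZT 13.7 (Thrsp) and ZT 16.0 (Pnpla3), after the lights had gone off. Thrsp and Pnpla3 had a fitted range from trough to peak of 4.10 on the log2 scale, Elovl6 of 3.05, Fasn of 2.0 and Acaca of 1.23 (edgeR, adjusted p = 0.000632, 0.00605, 0.00258, 0.0184 and 0.0264). Srebf1 (peak at ZT 11.8), Mlxipl (ZT 17.9) and Acly (ZT 15.8) were not called, with adjusted p of 0.0880, 0.0913 and 0.0567. DESeq2 called all 10 members (14.1% of genes), and edgeR without ZT 12 called 8, with Srebf1 added (8.6%). With the HFD liver of ZT 24 added 5 members were called (3.06%), and the range of Thrsp dropped to 2.40 (edgeR, adjusted p = 0.197). The calls of Thrsp and Acaca were lost. A fit of all 42 libraries called 4 members (6.7% of genes), without Me1, Acaca and Fasn. Without HFD ZT 16 replicate 1 the calls of Fasn and Acaca were lost. That of Acaca was also lost without HFD ZT 0 replicate 2, ZT 4 replicate 2 or ZT 12 replicate 2. Acly was called in turn without any 1 of HFD ZT 0 replicate 1, ZT 8 replicate 3, ZT 12 replicate 3 and ZT 16 replicates 2 and 3, and Srebf1 without HFD ZT 12 replicate 3. In the fits that gained a call 6.14% to 9.38% of genes were called, and 14.2% without HFD ZT 12 replicate 3. In those that lost one with 1 library left out, 5.59% to 7.31% were.

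Across the 30 livers of complete groups the enzymes varied together. Pearson's r of log2 CPM was 0.93 between Acly and Fasn, 0.93 between Fasn and Elovl6 and 0.92 between Acaca and Elovl6. With the mean of the other 9 members, r was 0.95 for Elovl6 and Fasn, 0.89 for Pnpla3 and Acacb, and 0.87 to 0.88 for Me1, Acly and Acaca. The transcripts of the regulators followed less closely, with 0.64 for Thrsp, 0.48 for Srebf1 and 0.27 for Mlxipl. These are descriptions over libraries that share diets and times, and no p is given. The genes outside the 10 whose profile was most like the mean of the members were Pklr (0.92), the pyruvate kinase of liver, Hcn3 (0.89), Pnpla5 (0.88), Tkt (0.86), a transketolase of the pentose phosphate pathway, Pdk1 (0.86) and Reck (0.86).

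Other genes of the pathway were read from lists. Of 14 genes for the supply of carbon and NADPH, 1 fell on the HFD over ZT 0 to 12, Pklr, from a mean of 427 to 235 CPM (-0.92 ± 0.18, edgeR, adjusted p = 0.0372), and 7 were lower at an unadjusted p under 0.05. Over all genes 0.0582% were called lower and 3.95% were lower at an unadjusted p under 0.05. DESeq2 called 2 of the 14 lower, and edgeR called 6 when every gene with a count was tested. Of 14 genes from elongation to triacylglycerol, 1 fell, the desaturase Scd1, from 9875 to 2786 CPM (-1.86 ± 0.36, edgeR, adjusted p = 0.0323), and 2 were lower and 1 higher at an unadjusted p under 0.05. Without AIN93G ZT 12 replicate 1, 1 of these 14 was called lower and 2 higher. No gene was called among 6 for SREBP processing, 10 for LXR, ChREBP partners and other regulators, and 8 for the control of acetyl-CoA carboxylase, by edgeR or DESeq2, with 0, 1 and 0 lower and none higher at an unadjusted p under 0.05. The median log2 fold changes of the 5 lists lay between -0.16 and 0.03, against -0.82 for the 10 members. Without the 3 ZT 12 libraries with high Arntl neither Pklr (-0.63) nor Scd1 (-1.12) was called, and limma called neither with all libraries. The call of Pklr was also lost without any 1 of 15 libraries, those that ended the call of Acaca with AIN93G ZT 4 replicate 2 in place of AIN93G ZT 8 replicate 1. That of Scd1 was lost without any 1 of 14, those of Acaca with HFD ZT 0 replicate 1 and HFD ZT 4 replicate 1 added and AIN93G ZT 4 replicate 3, AIN93G ZT 8 replicate 1 and HFD ZT 0 replicate 3 taken out.

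In the HFD livers at night, 1 of the 14 supply genes (Aacs) and 2 of the 14 later genes (Acsl3 and Agpat2) rose, where 3.11% of all genes did. In this main fit edgeR called none in the other 3 lists, and DESeq2 called 1, 0 and 1. At an unadjusted p under 0.05, 1, 0 and 1 of their genes were higher and 1, 0 and 0 lower. With every gene that had a count tested, 6 supply genes and 3 later genes were called higher. Aacs, Acsl3 and Agpat2 fell outside the rule for naming genes and were picked from their values. Aacs, which activates acetoacetate in the cytosol, had a log2 difference of 1.64 ± 0.32 (edgeR, adjusted p = 0.00301). The call of Acsl3, a fatty acid activating enzyme, was lost without HFD ZT 16 replicate 1 or HFD ZT 20 replicate 1.

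Per kb of gene length, Thrsp was the most abundant member in liver, with a median of 243 CPM per kb over 32 libraries. It was followed by Srebf1 (69.9), Acly (66.7), Mlxipl (66.5), Fasn (62.8), Me1 (45.0), Elovl6 (28.2), Acacb (18.04), Acaca (8.79) and Pnpla3 (7.73). The ranges of all neighbours in this order overlapped. The order pools diets and times, and by group means Thrsp was first in 7 of the 10 complete groups, Mlxipl in 2 (ZT 4 of both diets) and Acly in 1 (HFD ZT 0, with 60.5 CPM per kb against 50.2 for Thrsp). In the 10 adipocyte-rich libraries Fasn led with 1851 CPM per kb, and Thrsp (1681), Acly (665), Me1 (458), Pnpla3 (309), Acaca (179), Elovl6 (163), Srebf1 (92.5), Acacb (85.7) and Mlxipl (38.2) followed, again with overlap between neighbours.

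**Figure D4:**
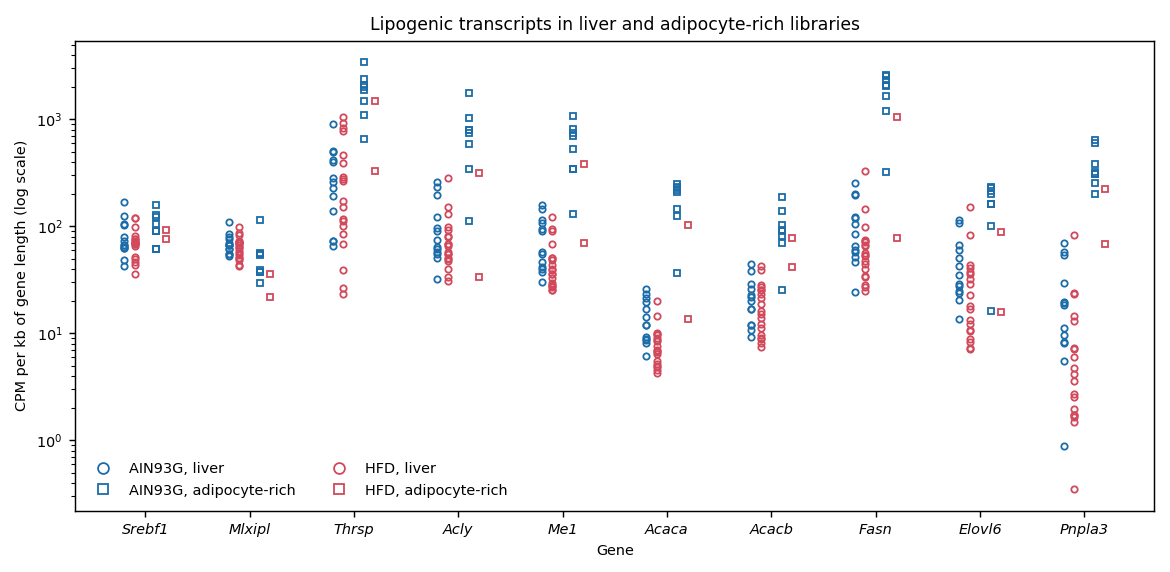
CPM per kb of gene length (log scale) of each lipogenic gene in liver (circles) and adipocyte-rich libraries (squares) of AIN93G (blue) and HFD (red). Fasn has a median of 62.8 in liver and 1851 in adipocyte-rich libraries, and Mlxipl has 66.5 and 38.2.

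The adipocyte-rich libraries differed in how much of the enzymes they held. In HFD ZT 24 replicate 1 all 10 members were at or below the highest liver, with 177 CPM of Acly and 103 CPM of Elovl6. In AIN93G ZT 16 replicate 2 this held for 8, with 104 CPM of Elovl6, and in the other 8 libraries for 1 to 3, which were Srebf1, Mlxipl or Elovl6. Fasn had 18221, 3553 and 13245 CPM at ZT 16 and 23158, 27978 and 22312 CPM at ZT 20 on AIN93G, against a mean of 1207 CPM in the 12 AIN93G livers of ZT 0 to 12. Between these kinds of library 8 members were higher in the adipocyte-rich ones (39.1% of genes), from 0.95 ± 0.38 for Elovl6 to 3.18 ± 0.38 for Fasn and 3.53 ± 0.49 for Pnpla3 on the log2 scale (edgeR, adjusted p = 0.0318, 1.22e-06 and 6.58e-06). Mlxipl was lower (-1.06 ± 0.17, edgeR, adjusted p = 3.21e-05), as were 35.8% of genes, and Srebf1 was at -0.45 ± 0.23 (adjusted p = 0.0918). With scaling by the library total alone the 8 were still called higher, Mlxipl was not called (-0.32, adjusted p = 0.107) and Srebf1 was at 0.28. The call of Elovl6 was lost without any 1 of AIN93G ZT 0 replicates 2 and 3, ZT 8 replicate 1, ZT 16 replicates 1 and 3 and ZT 20 replicates 1 and 2, and Srebf1 was called lower without ZT 16 replicate 1. Kind of library and time of day cannot be told apart here.

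Set against each other as labelled, the diets at ZT 16 and ZT 20 compare HFD liver with adipocyte-rich AIN93G libraries. At ZT 16, Acaca was lower on the HFD side (28.6% of genes were) and Srebf1 and Mlxipl were higher (27% of genes were). The mean CPM of Srebf1 was 485 and 460.02 on the 2 sides, and with scaling by the library total alone it was at 0.07 and was not called. At ZT 20, 8 members were lower (31.2% of genes), from -1.51 ± 0.34 for Acacb to -4.79 ± 0.67 for Pnpla3 (edgeR, adjusted p = 0.00501 and 0.000364). Fasn had 1088, 578 and 492 CPM in the HFD livers of ZT 20. At ZT 16 the calls of Acaca and Srebf1 were lost without HFD replicate 2 or 3, and that of Srebf1 also without HFD replicate 1 or AIN93G replicate 2 or 3. Me1, Fasn and Pnpla3 were called lower without AIN93G replicate 2, the library with 3553 CPM of Fasn, or without HFD replicate 1. Acacb was called lower only without AIN93G replicate 2. Of all genes, 54.8% were called in either direction without AIN93G replicate 2 and 50% without HFD replicate 1. At ZT 20 Mlxipl was called higher without AIN93G replicate 2 (55.2% of genes in either direction). Diet and kind of library cannot be told apart at these times.

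Within the adipocyte-rich libraries of AIN93G no member passed the test of ZT 20 against ZT 16 by edgeR (0.00711% of genes were higher), and Mlxipl alone had an unadjusted p under 0.05 (0.0168, with 4.24% of genes higher at this level). DESeq2 called none of the 10 and 48 of all genes. All 10 members had higher means at ZT 20, for Elovl6 1382 ± 87.1 CPM (SD, n = 3) against 601 ± 474 CPM. At ZT 24, with the low Arntl given above and 2 adipocyte-rich libraries per diet, Fasn had 25660.4 and 28465 CPM on AIN93G and 848 and 11604 CPM on the HFD, and Acaca had 3891 and 3955 CPM against 233 and 1771 CPM. No member was called by edgeR (0% of genes), Acaca had an unadjusted p of 0.0371 (6.64% of genes were lower at this level), and DESeq2 called none of the 10 and 205 of all genes. All 10 means were lower on the HFD, with log2 differences from -0.70 ± 0.43 (Mlxipl) to -2.36 ± 1.10 (Fasn). The pair of HFD libraries lay far apart, and markers of cell types other than adipocytes also ranged widely among the 10 adipocyte-rich libraries. The summed CPM of 6 lymphocyte markers was 18.5 to 1090, that of 5 fibroblast markers 3814 to 9945, that of 4 brown adipocyte markers 106 to 1562 and that of 7 mammary epithelium markers 63.1 to 977, with Wap at no more than 3 counts in any of them. Their part in the differences was not tested.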

How the data were processed

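The authors deposited a single table with the whole-number count of every gene in each library, beside gene coordinates, lengths and names, and the count columns of all 42 libraries were used (0 columns of values were left unmapped). The submitters' processing notes name fastp, STAR, HTSeq 0.6.1, DESeq, STAR-Fusion and mm10. The strand setting of the counting is not given in the sources used here.

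Libraries were grouped by the labelled diet and time point. Those with over 10000 CPM of Alb were taken as liver. Levels are plain CPM, and per kb values use the gene length in the table. Fold changes and p-values are from the quasi-likelihood test of edgeR 4.0.16 (R 4.3.3) with TMM scaling. Genes were tested whose mean count over the libraries of a fit reached 25. The main fit held the 30 livers of complete groups (12023 genes). P-values had Benjamini-Hochberg adjustment over all genes tested and a threshold of 0.05. Standard errors were derived as the absolute log2 fold change divided by the square root of the F statistic of the test. Separate fits served the cosine (period 24 h), ZT 16, ZT 20, the adipocyte-rich libraries, and AIN93G libraries of both kinds. Fold changes use a prior count, so those of low genes are drawn toward 0. The F-tests over time and the cosine have no direction, and their ranges are of fitted values. Correlations and likeness are over log2 CPM with a prior count of 2. A set of markers counted as absent had at most 3 counts in every library.

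The members and all gene lists were chosen with earlier results of these data known. Named genes were the 10 members, up to 3 higher and 3 lower genes of each pathway list that passed the diet test over ZT 0 to 12, with the largest fold changes, and the 6 genes most like the members. Promoter windows are from RefSeq (GRCm38.p6), matched by symbol for 10 of 10 members. DESeq2 1.42.0, limma 3.58.1, other filters and scalings, and each library left out served as alternatives. Those that leave out the 3 ZT 12 libraries with over 10 CPM of Arntl, some that leave out ZT 12, and the block by the number in the sample titles were chosen after seeing the data. The code was tested on simulated data.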

Additional observations from a re-analysis of the deposited data

Results flagged for a closer look

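In 9 of 30 pairs of a gene and a group of 6 to 8 libraries, the highest library stood apart by Dixon's gap test. For independent pairs of normally spread values, chance gives about 1 in 20, or 1.5. The test used plain CPM with several time points pooled, and the members vary together, so the 9 cannot be set against that rate. Of the 9, 6 were the same library, HFD ZT 16 replicate 1, within the 6 HFD livers of ZT 16 and ZT 20. It had 3632 CPM of Fasn (the next highest liver had 1088), 1513 CPM of Acly (692), 342 CPM of Acaca (169), 971 CPM of Elovl6 (283), 129 CPM of Pnpla3 (36.02) and 674 CPM of Srebf1 (409.6). Its Arntl was at 20.2 CPM, against 22.8 and 26.04 CPM in the other 2 HFD livers of ZT 16.

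In the HFD livers of ZT 4 and ZT 8, ZT 8 replicate 3 had 186 CPM of Elovl6 (78.4 in the next) and ZT 4 replicate 2 had 7.39 CPM of Pnpla3 (3.94). In the 8 adipocyte-rich AIN93G libraries, ZT 20 replicate 2 had 637 CPM of Mlxipl (316).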

How the results depend on the processing

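The numbers here are members called of 10. DESeq2 called 4 for diet over ZT 0 to 12 (1 by edgeR), 3 at ZT 0 (0), 1 for time on AIN93G (0), 8 for time on the HFD (5) and 5 as labelled at ZT 16 (3, with 58.4% of genes by DESeq2). Scaling by library totals alone gave 2 for diet and 5 at ZT 16. Testing every gene with 1 count gave 7 for diet, 7 at ZT 0, 1 at ZT 4, 1 at ZT 8, 2 for diet by time, 8 and 10 for time on AIN93G and the HFD, 9 for night (3.26% of genes) and 6 at ZT 16 (31%). A fit of all 42 libraries gave 3 for time on the HFD (3.21% of genes) and 4 for the cosine (7, with 6.7% of genes), and for diet it called Pnpla3 in place of Acaca, the 3 against 3 libraries of ZT 0 alone gave 1, and the data without ZT 12 gave 4 for diet, 1 for time on AIN93G, 0 for diet by time and 9 between kinds of library (9). Without the 3 ZT 12 libraries with over 10 CPM of Arntl, 0 were called for diet. In each of these the cause was not tested. Testing every gene left the fold changes in liver nearly as they were, so its further calls come from the p-values alone.

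With 1 library left out at a time, the members called were 0 to 6 for diet, 0 to 1 for time on AIN93G, 3 to 7 for time on the HFD, 2 to 7 for night, 5 to 9 for the cosine, 1 to 6 at ZT 16, 8 to 9 at ZT 20 and 8 to 9 between kinds of library. For diet at single time points, diet by time, and both tests within adipocyte-rich libraries they were 0 throughout. The other planned settings left the counts within 1.5 times. Of 4864 values of single genes under an alternative, 113 lost and 109 gained a call, and 0 called values changed sign.

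Counts over all genes moved more. For diet over ZT 0 to 12 they were 12 by edgeR, 83 by DESeq2, 22 by library totals, 232 with every gene, 64 without ZT 12, 0 without the ZT 12 libraries of high Arntl and 5 to 183 with 1 library left out. For time on AIN93G they were 99, 276 (DESeq2), 872 (every gene), 437 (without ZT 12) and 17 (at least 25 counts in every library), and for time on the HFD 634, 1788, 1738 and 1047. At ZT 0 they were 0 by edgeR, 13 by DESeq2, 51 with every gene and 9 with 3 against 3, and at ZT 8 2, 30, 183 and 0. At ZT 4 every gene gave 19 in place of 0, and at ZT 12 DESeq2 gave 3 and every gene 78 in place of 0. Diet by time gave 5 and 93 in place of 0. With 1 library left out, time on AIN93G gave 12 to 282, time on the HFD 330 to 1176, the cosine 672 to 1710, night 497 to 993 (828 in full), and diet 0 to 30 at ZT 8 and 0 to 107 at ZT 12. The cosine gave 1023, 1693 by DESeq2 and 367 with the ZT 24 liver added. Within adipocyte-rich libraries DESeq2 gave 48 in place of 1 between ZT 20 and ZT 16 and 205 in place of 0 at ZT 24. With 1 library left out, the comparison as labelled gave 6573 to 7608 at ZT 16 and 7185 to 7951 at ZT 20. That between kinds of library gave 9760 to 10213. In the full fits of these, 55.7%, 59.3% and 75% of genes were called.

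The replicate numbers used here only name the libraries. Of the 32 numbers that open the sample titles, 8 recur in several groups, no 2 groups share more than 1, and 0 are shared by the diets. What they mark is not given in the sources used here. As a fixed block they left 0 residual degrees of freedom in the 30 livers. As a random block in limma (correlation 0.0168) they left the members called as without the block, 1 for diet, 4 for time on the HFD, 4 for night and 0 for the other tests in liver. The cosine gave 7 with the block and 7 without. Between kinds of library (correlation -0.32) the block gave 9 against 8, with Srebf1 called lower and Elovl6 called in neither. The depth of at least 14592481 counts left Pnpla3 with as few as 9 counts in a liver, so its fold changes on the HFD are the least precise.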
